A study of Mus musculus with 10 samples.

Results

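The cytoplasmic ribosomal protein genes were followed in mouse testes of postnatal day 21 with and without the RNA helicase MOV10, and in the RNA bound to MOV10. The set holds the protein-coding genes whose mouse symbol begins with Rpl or Rps and a digit, together with Rpsa, Rplp0, Rplp1 and Rplp2, and leaves out the Rps6 kinases. It has 92 of the 55421 genes in the count files. Of these, 77 encode ribosomal proteins, 46 of the large and 31 of the small subunit. A further 8 are paralogs (Rpl10l, Rpl39l, Rpl36al, Rpl3l, Rpl22l1, Rps27l, Rpl7l1 and Rps27rt), 6 are annotated as protein-coding under a pseudogene name, and 1, Rps19bp1, encodes a protein that binds RPS19 and is not part of the ribosome.

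RNA-seq was done on poly(A) RNA of 3 pairs of wild type (Mov10+/+) and 3 pairs of Mov10-/- testes, and MOV10 CLIP-seq on wild type testes of the same age in 4 libraries numbered 1, 2, 3 and 5. The Mov10-/- mice carried a global deletion, made from a floxed allele with Actb-Cre, a recombinase driven by the ubiquitous actin promoter, and were of mixed strain background. Each library came from whole testis, so that fewer cells of a type and less RNA per cell cannot be told apart. Nothing in the labels ties same-numbered animals of the 2 genotypes together. Reads on genes numbered 5083407 to 9230540 per RNA-seq library, with Mov10-/- replicate 3 the shallowest and wild type replicate 3 the deepest, and 3404 to 4934 per CLIP-seq library.

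The ribosome is built from ribosomal RNA and one copy of nearly every ribosomal protein, so that cells make these proteins in step, and growing cells spend a large share of their mRNA on them. Their mRNAs begin with a run of pyrimidines, the terminal oligopyrimidine (TOP) motif, through which mTOR signalling and LARP1 set their translation. Several ribosomal protein genes lie on the X chromosome, which is silenced in spermatocytes during meiosis. Autosomal copies that arose by retrotransposition, such as Rpl10l and Rpl39l, are expressed in male germ cells, and Rpl10l is known to be needed for meiosis in male mice.

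The testis copies keep most of the coding sequence of their X-linked parents. Rpl10l, a single-exon gene at chr12:66283379-66284401 of mm10 on the minus strand, and Rpl10, with 7 exons in its main transcript at chrX:74270812-74273135 on the plus strand, encode proteins of the large subunit. Their coding sequences are 642 bases long each, and 98 of these bases differ, which is an identity of 84.7%. Bases 64 to 213 of both are given to show how the differences are spread, with the 29 differing bases in capitals.
Rpl10l: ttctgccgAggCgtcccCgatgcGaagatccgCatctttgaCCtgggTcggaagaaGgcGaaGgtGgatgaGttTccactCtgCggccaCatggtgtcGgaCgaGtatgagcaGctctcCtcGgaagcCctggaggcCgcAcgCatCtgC
Rpl10: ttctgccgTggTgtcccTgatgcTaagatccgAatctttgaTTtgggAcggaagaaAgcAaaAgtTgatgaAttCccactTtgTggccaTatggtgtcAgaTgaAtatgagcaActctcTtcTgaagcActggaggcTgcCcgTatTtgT
Rpl39l, at chr16:10170226-10174911 on the plus strand, and the X-linked Rpl39, at chrX:37082520-37085402 on the minus strand, encode a very short protein at the exit tunnel of the large subunit. Their coding sequences of 153 bases differ at 23 positions, an identity of 85.0%, and bases 4 to 153 are given with the differing bases in capitals.
Rpl39l: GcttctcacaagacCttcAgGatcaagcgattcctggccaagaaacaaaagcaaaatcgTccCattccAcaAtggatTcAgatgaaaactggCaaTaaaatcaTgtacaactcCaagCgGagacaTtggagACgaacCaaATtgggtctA
Rpl39: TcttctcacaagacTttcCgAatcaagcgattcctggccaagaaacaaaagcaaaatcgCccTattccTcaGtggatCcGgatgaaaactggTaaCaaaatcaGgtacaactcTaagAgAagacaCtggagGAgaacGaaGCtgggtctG
No stretch of 50 bases of the Rpl10l or Rpl39l transcript occurs in that of its parent. The other paralogs stood at identities of 87.7% (Rpl36al with Rpl36a), 76.2% (Rps27l with Rps27), 73.1% (Rpl3l with Rpl3), 66.9% (Rpl22l1 with Rpl22) and 51.7% (Rpl7l1 with Rpl7). The coding sequence of Rps27rt did not differ from that of Rps27 at any of its 252 bases, so reads of that pair cannot be told apart there.

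A promoter sequence of RefSeq (GRCm38.p6) was held for 66 of the 92 genes. The TOP motif was searched as a C at the annotated start followed by C or T to at least 5 letters, on the strand of the gene. It stood at an annotated start of 14 of the 66 genes (21.2%) and of 3.01% of all 27025 genes with a promoter. A run of at least 5 letters that began with a C within 10 bases of the start was found for 60.6% of the ribosomal protein genes and 34.4% of all genes, and a run of at least 8 letters for 36.4% and 9.43%. Rps6, whose protein is the substrate of the S6 kinases, is shown as an example, as 30 bases before and 30 from its start (chr4:86857338-86857397, minus strand), with the pyrimidine run from the start in capitals. Rpl10 is shown in the same window (chrX:74270786-74270845, plus strand), where no such run begins at the annotated start.
Rps6: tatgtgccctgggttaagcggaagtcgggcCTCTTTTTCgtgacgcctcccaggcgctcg
Rpl10: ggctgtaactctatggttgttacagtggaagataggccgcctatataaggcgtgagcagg
The annotated start of RefSeq need not be the start used in testis.

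Ribosomal protein genes took between 0.320% and 0.410% of the reads on genes in the RNA-seq libraries. In wild type testes the shares were 0.332%, 0.320% and 0.324% in replicates 1, 2 and 3. In Mov10-/- testes they were 0.348%, 0.410% and 0.338% in replicates 2, 3 and 4. The means were 0.325% ± 0.00616 and 0.365% ± 0.0391 (SD, n = 3 each), and the ratio of the Mov10-/- mean to the wild type mean was 1.12. All Mov10-/- values lay above all wild type values, and replicate 3, the shallowest library, stood apart from the other 5. In this library 57.2% of the reads did not align, against 26.5% to 35.9% in the other RNA-seq libraries. Without Mov10-/- replicate 3 the ratio was 1.05.

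**Figure D1:**
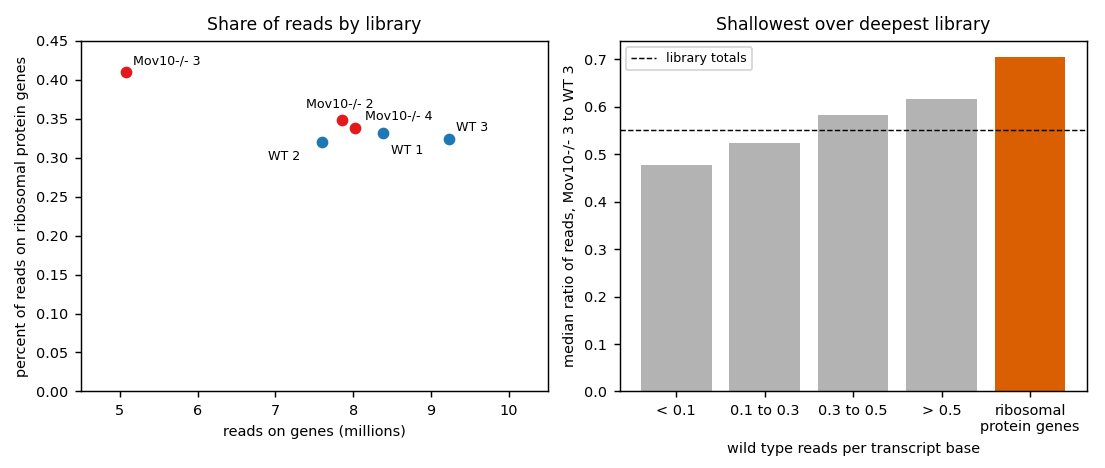
Left, the percent of reads on genes that fell on the 92 ribosomal protein genes (y axis, from 0) against reads on genes (x axis) in 3 wild type (WT, blue) and 3 Mov10-/- (red) libraries, where Mov10-/- replicate 3 lies highest at 0.410% and is the shallowest. Right, bars give the median ratio of reads in Mov10-/- replicate 3 to reads in wild type replicate 3 for protein-coding genes in 4 ranges of reads per transcript base and for the tested ribosomal protein genes (orange, 0.704), and the dashed line is the ratio of the library totals, 0.551.

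The shallowest library was also the one with the highest share, while the next shallowest, wild type replicate 2, had the lowest share. Mov10-/- replicate 3 had 0.551 times the reads of wild type replicate 3, while the ribosomal protein genes had 0.696 times as many reads. Over all protein-coding genes tested, the median ratio of these libraries rose with the number of reads per base of transcript, from 0.477 below 0.1 reads per base to 0.524, 0.582 and, above 0.5 reads per base, 0.617. The 87 ribosomal protein genes that were tested had a median of 0.405 reads per base, against 0.140 for all 15731 protein-coding genes tested. Their median ratio was 0.704. No gene had many more reads than it had bases. Among 48418 genes with at least 200 exonic bases the highest value in any library was 1.28 reads per exonic base, 2 genes were above 1, and the most reads on any gene was 7760. Whether duplicate reads were removed before counting is not given in the sources used here. The part of depth and of unaligned reads in the shares and fold changes of these genes was not tested. Results are therefore given with and without Mov10-/- replicate 3.

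The counts of most ribosomal protein genes in wild type testes lay within a range of 10-fold. Since reads per base rarely passed 1 in these files, whether differences in RNA level between these genes are larger than those in the counts was not tested. Of the 92 genes, 80 had a wild type mean between 10 and 100 reads per 1000000 reads on genes (RPM), and the median of the 87 tested was 36.2 RPM. Large subunit genes had a median of 36.2 RPM and small subunit genes one of 40.4 RPM. Rpl4, of the large subunit, was the highest with 116, 116 and 111 RPM in the wild type libraries and 120, 137 and 116 RPM in the Mov10-/- libraries. Across the 87 genes the wild type RPM rose with the length of the transcript (Spearman's rho = 0.493) and with the number of its positions that no other gene shares (rho = 0.432), as a description over genes that share libraries. RPM is not divided by length, so a longer transcript takes more reads at an equal RNA level. These correlations therefore do not describe RNA levels.

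Per kilobase of the main transcript, the highest were Rpl22 (142 ± 19.7 RPM per kilobase, SD, n = 3), Rps18 (84.8 ± 3.05), Rpl32 (83.4 ± 3.48) and Rps15 (80.8 ± 3.41). The protein of Rpl22 binds RNA at the surface of the large subunit, and those of Rps18 and Rps15 lie in the head of the small subunit. These levels depend on the length used. The main transcript of Rpl22 has 474 bases, and over all its annotated exons the level was 23.1 RPM per kilobase. Over all exons Rps15 had 64.1 RPM per kilobase and Rps18 had 19.4. The order of neighbours in this list is therefore not set by these counts.

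**Figure D2:**
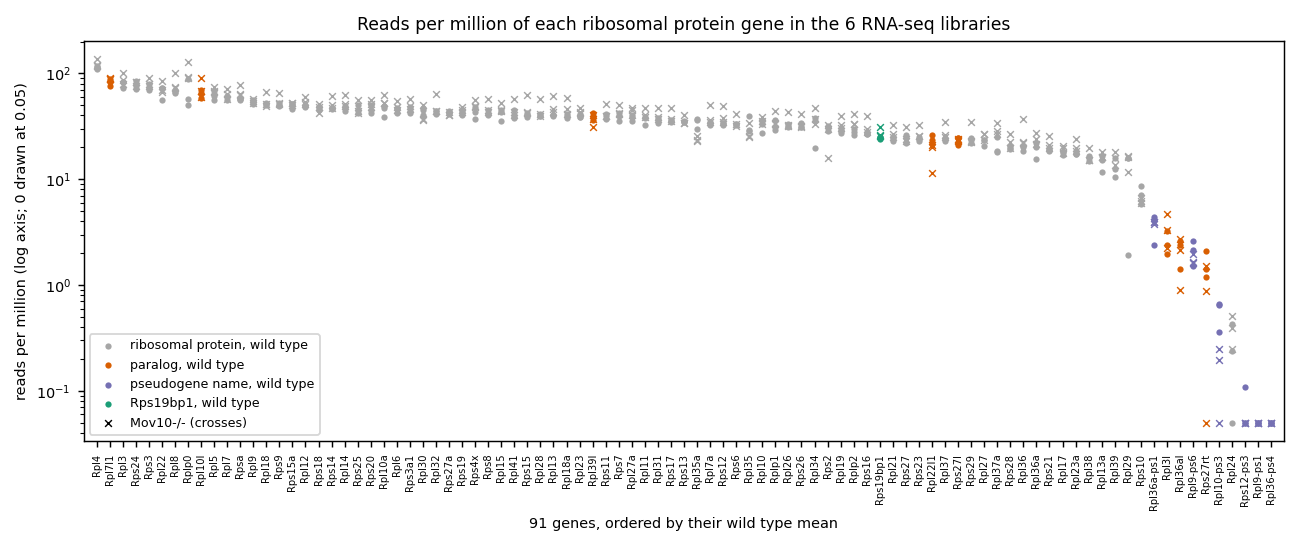
RPM (log axis, 0 drawn at 0.05) of 91 of the 92 ribosomal protein genes, ordered by their wild type mean, with dots for 3 wild type and crosses for 3 Mov10-/- libraries. Paralogs are orange, genes with a pseudogene name purple and Rps19bp1 green. Most genes lie between 10 and 100 RPM in all 6 libraries, and the genes at the right end are those with a pseudogene name, low paralogs, Rps10 and Rpl24.

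For some genes, reads are hard to place, and the part of this in their levels was not tested. Rpl24, of the large subunit, had 2, 0 and 4 reads in wild type and 4, 2 and 2 in Mov10-/- libraries. Exons of another gene on the same strand, Gm28037, cover 71.5% of its transcript. Rps10, of the small subunit, had a wild type mean of 7.20 RPM, and exons of a read-through gene cover 91.6% of its transcript. Such overlaps were present for 5 of the 92 genes, the others being Rpl13a, Rpl19 and Rpl36al. Levels were not low in all of them, with wild type means of 14.4 RPM for Rpl13a and 28.5 RPM for Rpl19. The files list reads that overlap more than one gene as ambiguous and count them on none, so the levels of these 5 genes are lower bounds. Stretches of 50 bases that also occur in the transcript of another gene made up a median of 54.1% of a gene's transcript. They were absent in 5 genes, among them Rpl39l, Rpl3l, Rps19bp1 and Rpl36-ps4, and covered at least 50% of the transcript in 52. Named pseudogenes of ribosomal proteins, 290 in all, held reads equal to 7.26% to 8.70% of those on the 92 genes in the RNA-seq libraries.

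Of the genes with a pseudogene name, Rpl36-ps4 and Rpl9-ps1 had no read in any RNA-seq library, which allows up to 0.325 to 0.590 RPM per library for counting error alone, and Rps12-ps3 had 1 read over the 6 libraries together. Rpl10-ps3 had 3, 5 and 6 reads in wild type and 0, 1 and 2 in Mov10-/- libraries, and 96.1% of its transcript is shared with other genes. Together with Rpl24, these 4 genes stayed below the filter of 1 RPM in at least 3 libraries and were not tested.

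Mov10 itself was lower in every Mov10-/- library. It had 116, 93.0 and 121 RPM in wild type and 29.9, 25.6 and 27.0 RPM in Mov10-/- testes. Its log2 fold change was -1.999 ± 0.123 (SE), with an adjusted p of 0.00552 by the quasi-likelihood test of edgeR (Benjamini-Hochberg adjustment) over 20240 genes. It was the only gene called, with a change of more than 2-fold at an adjusted p below 0.05, which is 0.00494% of the genes tested. It was no longer called without Mov10-/- replicate 3 (adjusted p = 0.106) or Mov10-/- replicate 4 (adjusted p = 0.143) by the same test, while its log2 fold change was -1.98 in both.

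The comparison of genotypes asked whether loss of MOV10 changed the RNA of the ribosomal protein genes. None of the 87 tested was called by edgeR's quasi-likelihood test, DESeq2, edgeR's exact test or limma voom, and the smallest adjusted p by edgeR's quasi-likelihood test was 0.179. At an unadjusted p under 0.05 by this test, 1 gene was higher and 1 lower in Mov10-/- testes, while 5.58% of all genes tested were higher and 11.9% lower. Under DESeq2, 1039 of the 20240 genes were called.

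The log2 fold changes of most of these genes were small and above 0. The median was 0.17, with 75 above and 12 below 0 and a middle range of 0.10 to 0.24, and the median of all genes tested was 0.03. Large subunit genes had a median of 0.20, with 42 of 45 above 0, and small subunit genes a median of 0.16, with 27 of 31 above 0. Without Mov10-/- replicate 3 these medians were 0.08 and 0.02. In 25 of the 87 genes every Mov10-/- library was above every wild type library, and in 2 every one was below, against 10.9% and 15.3% of all genes tested. Mov10-/- replicate 3 was the highest of the 6 libraries for 64 of the 87 genes. Without that library the median fell to 0.04, with 60 of 87 genes above 0, and the median of all genes was 0.02. The Mov10-/- libraries left were then above all wild type libraries in 26 genes and below them in 5, against 20.5% and 21.2% of all genes. Protein-coding genes with 0.3 to 0.5 reads per base had a median of 0.01 with all libraries and -0.06 without Mov10-/- replicate 3. Above 0.5 reads per base these medians were -0.01 and -0.12. They were 0.06 and 0.06 at 0.1 to 0.3 reads per base, and 0.13 and 0.20 below 0.1.

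**Figure D3:**
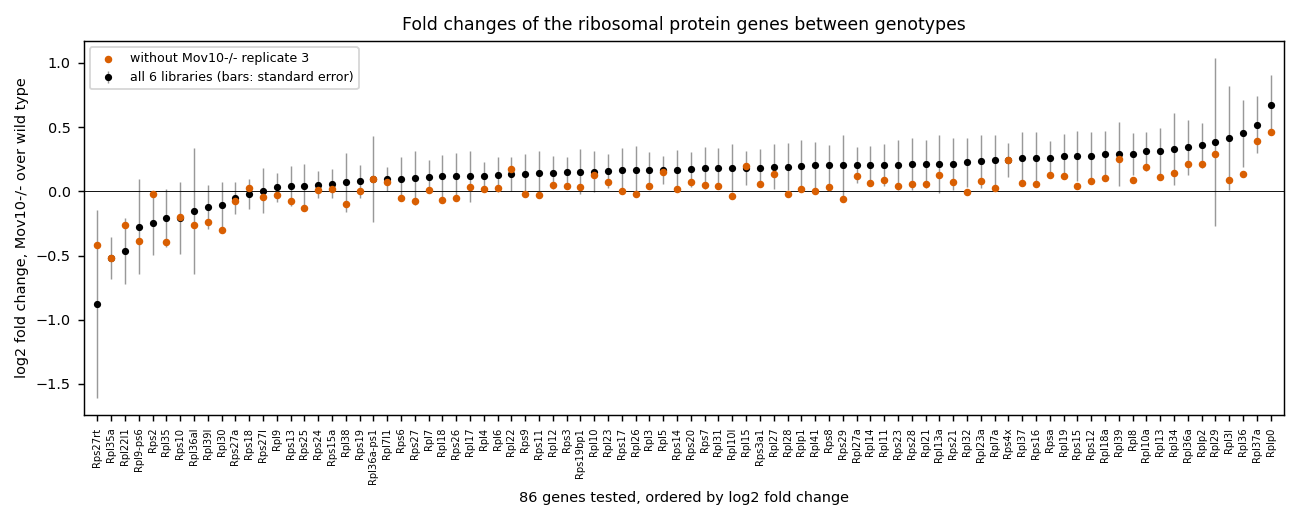
Log2 fold changes of 86 of the 87 tested ribosomal protein genes, Mov10-/- over wild type, ordered by size, with all 6 libraries (black, bars are the standard error) and without Mov10-/- replicate 3 (orange). Most black points lie above 0, and the orange points lie closer to 0; the medians over all 87 genes were 0.17 and 0.04.

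The largest positive changes were those of Rplp0, Rpl37a, Rpl36, Rpl3l and Rpl29. Rplp0, the base of the stalk that recruits translation factors to the large subunit, had 87.8, 50.4 and 57.3 RPM in wild type and 92.5, 128 and 90.6 RPM in Mov10-/- testes. Every Mov10-/- library lay above every wild type library, though wild type replicate 1 came close. Its log2 fold change was 0.67 ± 0.23 (SE), with an unadjusted p of 0.0207 and an adjusted p of 0.206 by the quasi-likelihood test of edgeR (Benjamini-Hochberg adjustment). Without Mov10-/- replicate 3 the log2 fold change of Rplp0 was 0.46.

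The other stalk proteins showed smaller differences. Rplp1 had 30.9, 36.3 and 29.4 RPM in wild type and 33.9, 44.5 and 33.0 RPM in Mov10-/- testes, and the groups overlapped. Rplp2 had 27.7, 26.2 and 30.1 RPM in wild type and 33.5, 41.3 and 33.0 RPM in Mov10-/- testes, with no overlap and a log2 fold change of 0.36 ± 0.17 (SE), and an adjusted p of 0.337 by edgeR's quasi-likelihood test. Without Mov10-/- replicate 3 the log2 fold change of Rplp2 was 0.21. Rpsa, which also serves as a laminin receptor, had 57.0, 57.0 and 55.9 RPM in wild type and 64.1, 77.1 and 63.0 RPM in Mov10-/- testes, again without overlap.

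Rpl37a, of the large subunit, had 18.2, 25.3 and 18.4 RPM in wild type and 26.9, 33.6 and 28.8 RPM in Mov10-/- testes, and its log2 fold change was 0.52 ± 0.23 (SE). Rpl36, of the large subunit, had 18.6, 20.4 and 20.4 RPM in wild type and 21.8, 36.8 and 22.7 RPM in Mov10-/- testes. The value of Rpl36 in Mov10-/- replicate 3 set most of its difference, since the log2 fold change was 0.45 with this library and 0.13 without it. Rpl10a, of the large subunit, had a log2 fold change of 0.31 ± 0.15 (SE) and no overlap between the groups. Without Mov10-/- replicate 3 it was 0.19.

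Rpl29, also of the large subunit, had 1.91, 15.9 and 15.9 RPM in wild type and 11.7, 16.1 and 16.7 RPM in Mov10-/- testes. Its low value in wild type replicate 1 rests on 16 reads, against 82 to 147 in the other 5 libraries, and its log2 fold change of 0.39 ± 0.65 (SE) turned negative without that library, at -0.13. Stretches shared with 84 other genes make up 78.5% of its transcript. Rpl34, chosen after its values were seen, was also lowest in wild type replicate 1, at 19.8 RPM, against 33.3 to 47.0 RPM elsewhere.

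The largest negative changes were those of Rps27rt, Rpl35a, Rpl22l1, Rpl9-ps6 and Rps2. Rpl35a, a protein of the large subunit that is mutated in some people with Diamond-Blackfan anaemia, had 37.4, 29.7 and 36.6 RPM in wild type and 23.7, 23.2 and 25.7 RPM in Mov10-/- testes. All Mov10-/- values lay below all wild type values. Its log2 fold change was -0.52 ± 0.16 (SE), with an unadjusted p of 0.0127 and an adjusted p of 0.179 by the quasi-likelihood test of edgeR (Benjamini-Hochberg adjustment), and it was also -0.52 without Mov10-/- replicate 3. DESeq2 gave an adjusted p of 0.0411 for Rpl35a, at a fold change under 2.

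Rps2, of the small subunit, had 28.9, 30.7 and 32.0 RPM in wild type and 32.2, 15.9 and 29.5 RPM in Mov10-/- testes. The value of Mov10-/- replicate 3 alone was low, and the log2 fold change of -0.25 was -0.02 without it. Rps27rt, the retrotransposed copy of Rps27, had 10, 16 and 13 reads in wild type and 12, 0 and 7 in Mov10-/- libraries, and Rpl9-ps6 had 18, 20 and 14 and then 13, 10 and 13. These counts leave differences of this size not detectable, with standard errors of 0.73 and 0.37 on the log2 scale.

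The paralogs and their parents were compared by the log2 ratio of their reads in the same library, which asked whether the balance of testis copies and somatic genes differed between genotypes. Of 9 pairs, 7 had at least 10 reads of both genes in every RNA-seq library. With 3 libraries against 3 the smallest p an exact permutation test can give is 0.1, so no pair could pass 0.05.

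Rpl10l, the testis copy, was above its X-linked parent in every library. Rpl10l had 542, 525 and 542 reads in wild type and 474, 461 and 544 reads in Mov10-/- libraries, while Rpl10 had 302, 207 and 308 and then 306, 181 and 266. The reads of Rpl10l were 1.79, 2.54 and 1.76 times those of Rpl10 in wild type and 1.55, 2.55 and 2.05 times in Mov10-/- libraries. The mean log2 ratios were 1.00 ± 0.30 in wild type and 1.00 ± 0.36 in Mov10-/- testes (SD, n = 3 each), and the exact permutation test (two-sided) gave p = 0.9. Per kilobase of transcript Rpl10l stood at 62.7 ± 5.08 RPM and Rpl10 at 40.3 ± 5.63 RPM in wild type testes (SD, n = 3). Only 7.60% of the transcript of Rpl10l is shared with other genes, against 92.1% of that of Rpl10, which shares stretches with 15 other genes.

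Rpl39l was above Rpl39 in every library as well. Rpl39l had 39.2, 42.6 and 36.3 RPM in wild type and 31.3, 40.3 and 37.1 RPM in Mov10-/- testes, and Rpl39 had 15.7, 10.53 and 12.5 RPM and then 17.96, 15.9 and 13.6 RPM. The mean log2 ratio was 1.63 ± 0.36 in wild type and 1.20 ± 0.35 in Mov10-/- testes (SD, n = 3 each), and the groups overlapped (exact permutation p = 0.3, adjusted over 7 pairs 0.875). Per kilobase, Rpl39l stood at 71.6 ± 5.76 RPM and Rpl39 at 21.1 ± 4.31 RPM in wild type testes (SD, n = 3).

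Rpl22l1, a paralog of Rpl22 that can take its place in the ribosome, was the pair without overlap between genotypes. Rpl22l1 had 23.7, 26.3 and 21.7 RPM in wild type and 20.9, 11.4 and 20.1 RPM in Mov10-/- testes. The mean log2 ratio of Rpl22l1 to Rpl22 was -1.49 ± 0.34 in wild type and -2.13 ± 0.39 in Mov10-/- testes (SD, n = 3 each), a difference of -0.64. The exact permutation test gave p = 0.1, the smallest it can give, and 0.7 after adjustment over 7 pairs. Without Mov10-/- replicate 3 the difference was -0.43. The log2 fold change of Rpl22l1 alone was -0.46 ± 0.26 (SE), with an adjusted p of 0.391 by edgeR's quasi-likelihood test, and -0.26 without Mov10-/- replicate 3.

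Rps4l, a copy of the X-linked Rps4x that the annotation used here holds as a transcribed pseudogene and that is therefore no member of the set, had 368 to 522 reads per RNA-seq library and log2 ratios to Rps4x between -0.12 and 0.77. Rpl7l1, a paralog of Rpl7 with a role in ribosome assembly, had 1.25 to 1.52 times the reads of Rpl7, and Rps27l had 0.778 to 1.10 times those of Rps27. Of the transcript of Rps27, 98.6% is shared with other genes, against 22.4% of that of Rps27l. The part of this sharing in their ratio was not tested. Rpl3l, the copy of Rpl3 used in heart and skeletal muscle, had 15 to 30 reads per library and a mean log2 ratio to Rpl3 that was -5.00 ± 0.36 in wild type and -4.77 ± 0.45 in Mov10-/- testes (SD, n = 3 each). The exact permutation p of these 4 pairs lay between 0.5 and 0.9. Rpl3l is known in skeletal muscle. Summed markers of this tissue, 10 genes, ranged from 68.8 to 86.8 RPM in wild type and from 96.3 to 153 RPM in Mov10-/- libraries. The largest part of each sum was Actn3, at 46.6 to 57.5 RPM in wild type and 62.4 to 77.2 RPM in Mov10-/- libraries. Mb and Myh2 were at 0 in at least 1 library. The highest sum was that of Mov10-/- replicate 2, where Acta1 was at 26.6 RPM, against 1.18 and 0.747 RPM in Mov10-/- replicates 3 and 4. The part of these markers in the counts of Rpl3l was not tested.

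**Figure D4:**
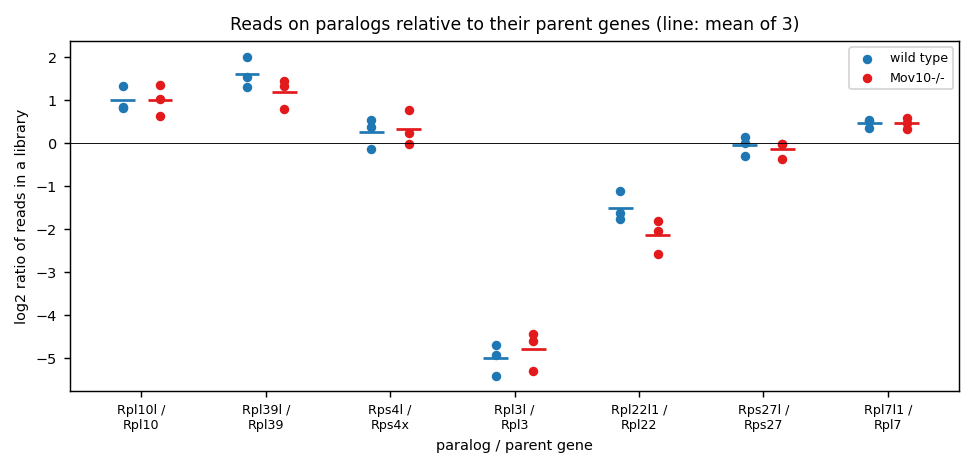
Log2 ratio of the reads of each paralog to those of its parent gene in the same library (y axis), for 7 pairs in 3 wild type (blue) and 3 Mov10-/- (red) libraries, with a line at each mean. Rpl10l and Rpl39l lie above 0 in all 6 libraries, Rpl22l1 and Rpl3l below 0, and Rpl22l1 is the pair whose genotypes do not overlap.

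The X-linked genes Rpl10, Rpl36a, Rpl39 and Rps4x together had 121, 90.5 and 109 RPM in wild type and 137, 128 and 116 RPM in Mov10-/- libraries. Their share of the reads on all 77 ribosomal protein genes was 3.99%, 3.09% and 3.66% in wild type and 4.24%, 3.37% and 3.74% in Mov10-/- libraries, lowest in wild type replicate 2. Their median log2 fold change was 0.27, and that of the 72 autosomal genes tested was 0.18, or 0.23 and 0.04 without Mov10-/- replicate 3. Rpl10l and Rpl39l together had 95.01 to 112 RPM in wild type and 91.7 to 131 RPM in Mov10-/- libraries. Markers of germ cell stages also differed between the libraries. The summed markers of spermatids, 20 genes, of which Tnp2 was at 0 in 1 Mov10-/- library, were at 666, 1495 and 464 RPM in wild type and 189, 455 and 267 RPM in Mov10-/- libraries, again with wild type replicate 2 apart, at the highest level. Spermatocyte markers, 16 genes, ranged from 2262 to 2303 RPM in wild type and from 2234 to 2519 RPM in Mov10-/- libraries. Sertoli cell markers, 12 genes, ranged from 734 to 892 RPM in wild type and from 949 to 1095 RPM in Mov10-/- libraries. Among them, Rhox5 was at 0 in every library but Mov10-/- replicate 4, where it was at 0.125 RPM. The part of cell composition in the levels of ribosomal protein genes was not tested.

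Genes that work with the ribosomal proteins were read from fixed lists, and none was called by edgeR's quasi-likelihood test. Of the ribosomal proteins with other names, Fau had 26.5, 27.5 and 25.8 RPM in wild type and 29.5, 40.7 and 31.6 RPM in Mov10-/- testes, and Rack1 had 94.2, 89.99 and 90.6 RPM and then 102, 130 and 96.8 RPM, both without overlap. Of 18 translation factors of the TOP class, 1 was higher at an unadjusted p under 0.05 and none was lower, with a median log2 fold change of 0.09, which was -0.01 without Mov10-/- replicate 3. Tpt1, whose mRNA carries a TOP motif, had a log2 fold change of 0.35 ± 0.15 (SE) and an adjusted p of 0.272 by edgeR's quasi-likelihood test. Of 36 ribosome biogenesis genes, 1 was higher and 1 lower at an unadjusted p under 0.05, with a median of 0.09, or 0.05 without that library. The lower one was Efl1, a GTPase that releases EIF6 from new large subunits, with 79.5, 101 and 67.5 RPM in wild type and 52.3, 56.3 and 54.7 RPM in Mov10-/- testes. The higher one was Noc2l, with 73.9, 59.3 and 79.7 RPM and then 95.5, 97.4 and 85.7 RPM. Of 12 genes of RNA polymerase I transcription, Ubtf was higher at an unadjusted p of 0.0301 by the same edgeR test, with an adjusted p of 0.236. None of 15 regulators of TOP mRNAs and mTOR and none of 9 assembly chaperones passed an unadjusted p under 0.05, with medians of 0.04 and 0.11, or 0.05 and 0.07 without Mov10-/- replicate 3.

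CLIP-seq recovers the RNA that ultraviolet light has linked to a protein, here MOV10, and its comparison with wild type RNA-seq asked which ribosomal protein mRNAs were bound beyond their level. Replicates 1, 2 and 3 differed by less than the sampling noise (chi-square over its degrees of freedom 0.219 to 0.237) and were averaged and counted as 1 library, which leaves 2. Of all CLIP-seq reads, 99.5% to 99.6% did not align. Of those that aligned, 41.1% to 44.4% had no unique position, against 9.50% to 10.3% in RNA-seq. The part of these losses in the ratios of CLIP-seq to RNA-seq was not tested. Ribosomal protein genes had 4 of 3948, 3 of 3424, 3 of 3404 and 19 of 4934 reads on genes in replicates 1, 2, 3 and 5. The shares were 0.101% (95% Wilson interval 0.0394% to 0.260%), 0.0876% (0.0298% to 0.257%), 0.0881% (0.0300% to 0.259%) and 0.385% (0.247% to 0.601%), for counting error alone. Replicates 1, 2 and 3 lay below the wild type RNA-seq share of 0.325% ± 0.00616 (SD, n = 3), and the interval of replicate 5 included it. The mean of 0.239% ± 0.207 (SD, n = 2) was 0.734 times that of the wild type RNA-seq, and 0.284 times without replicate 5. The spread between the CLIP-seq libraries was larger than this difference. The paper states that their RNA was taken from the main radioactive band on the membrane and from the region above it. Which region each library came from is not given in the sources used here. The spread may therefore not be one between replicates of the same cut.

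**Figure D5:**
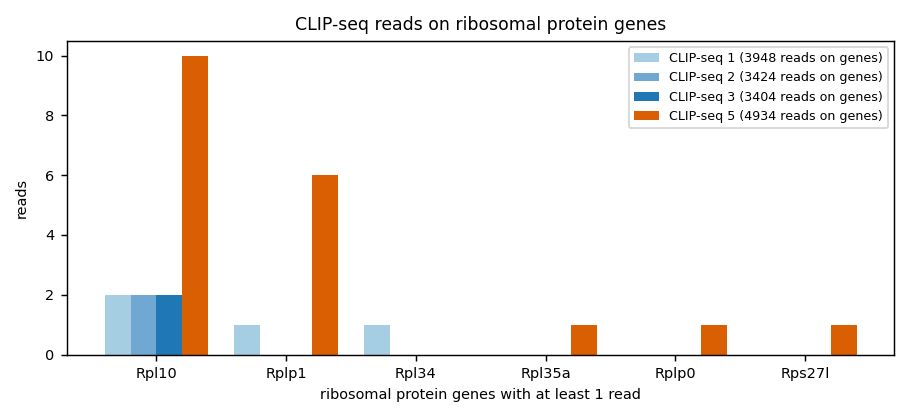
CLIP-seq reads (y axis) on 6 ribosomal protein genes with at least 1 read, in replicates 1, 2 and 3 (blue shades) and 5 (orange). Rpl10 has reads in all 4 libraries and the most, 10, in replicate 5.

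Of the 92 genes, 7 had a CLIP-seq read and 85 had none. A count of 0 still permitted a level of 608 to 881 RPM, depending on the library, which is above the RNA-seq level of every ribosomal protein gene, so that binding in proportion to the RNA was not detectable for them at this depth. Rpl10 had 2, 2, 2 and 10 reads in replicates 1, 2, 3 and 5, which is 16 of the 29 reads on the set. This is 507, 584, 588 and 2027 RPM, against 36.0, 27.2 and 33.4 RPM in wild type RNA-seq, and the mean CLIP-seq level was 40.1 times the wild type mean. Its log2 fold change was 5.45 ± 0.60 (SE), with an adjusted p of 0.0509 by the quasi-likelihood test of edgeR (Benjamini-Hochberg adjustment) over 18784 genes, just above the threshold. Rplp1 had 1, 0, 0 and 6 reads and a mean of 20.3 times its RNA-seq level, with a log2 fold change of 4.44 ± 0.98 (SE) and an adjusted p of 0.307 by the same edgeR test. No read fell on Rpl10l, whose RNA-seq level was higher than that of Rpl10.

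The remaining reads were few. Rpl34 had 1 read in replicate 1, and Rpl35a, Rplp0 and Rps27l had 1 each in replicate 5. None of the 87 genes tested was called by edgeR's quasi-likelihood test in either direction, 2 had an unadjusted p under 0.05, and 0.106% of all genes tested were called higher and 0% lower. DESeq2 called 2 of them, Rpl10 and Rplp1, while over all 18784 genes it called 86 higher and 57 lower. The call of Rpl10 rested on the libraries and settings used, since it was also called without wild type replicate 1 (adjusted p = 0.0116) or 3 and not without wild type replicate 2 (adjusted p = 0.107) by edgeR's quasi-likelihood test. Of the transcript of Rpl10, 92.1% is shared with other genes, and no read fell on a named pseudogene of a ribosomal protein in any CLIP-seq library.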

How the data were processed

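RNA-seq of 3 wild type and 3 Mov10-/- testes and 4 MOV10 CLIP-seq libraries were used. The deposited values are counts of reads on each Ensembl gene, not normalized. The authors aligned RNA-seq reads to mm10 with STAR and counted them with htseq-count, per the study's methods. The strand setting and treatment of duplicates are not given in the sources used here. Genes were named from GENCODE annotation of GRCm38, another version than the authors', which matched 55240 of 55421 genes; the main transcript was the APPRIS principal one with the longest coding sequence, the shortest of equals.

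RPM was computed over reads on genes. Depth was 5083407 to 9230540 reads in RNA-seq, 1 read being 0.108 to 0.197 RPM, and 3404 to 4934 in CLIP-seq, 1 read being 203 to 294 RPM. A count of 0 allows 3 counts, and intervals cover counting error only. For the genotypes, genes that exceeded 1 RPM in 3 or more libraries entered the quasi-likelihood test of edgeR 4.0.16 (R 4.3.3) with TMM scaling and Benjamini-Hochberg adjusted p-values, and a call needed more than 2-fold at an adjusted p below 0.05. CLIP-seq was compared with wild type RNA-seq by the same test with library totals, for genes that exceeded 1 RPM in all wild type libraries or had 10 CLIP-seq reads or more, and called at an adjusted p under 0.05. P-values measure the spread between these samples. Paralog ratios had an exact permutation test (scipy 1.17.1). DESeq2 1.42.0, the exact test and limma 3.58.1 (voom), other scalings and filters, a block on the replicate number, pseudogene reads added and each library left out were alternatives. On simulated counts of 20240 genes with 200 changed 4-fold, the genotype test recovered 139 and called 7 others. DESeq2 recovered 156 and called 33. The simulated libraries had no shifts beyond depth, and 4-fold exceeds every change of the ribosomal protein genes tested. These rates therefore need not hold for the comparison of genotypes here. Named were all paralogs and parents, stalk genes, Rpsa, the 5 largest changes either way, the 5 smallest p, the 5 highest per kilobase, genes under 1 RPM, the 5 with most CLIP-seq reads and genes called by any test. Members and lists were chosen with earlier results of these data known. The values of 1 gene are not reported here; it is kept in the counts, medians and sums.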

Additional observations from a re-analysis of the deposited data

Results flagged for a closer look

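Among the 4 CLIP-seq libraries, 8 measures were looked at for a library far from the others, by the gap to the nearest library over the whole range (Dixon's critical value 0.829). For independent values with a normal spread, such a gap arises by chance in about 1 of 20 groups. That rate does not apply here, since replicates 1, 2 and 3 agree within sampling noise. For a gene with a single read, the gap is always the whole range. The share of reads on ribosomal protein genes was 0.385% in replicate 5, against 0.0876% to 0.101% in replicates 1, 2 and 3, a gap of 0.954 of the range. Rpl10 stood apart in the same library, at 2027 RPM against 507 to 588 RPM, a gap of 0.947 of the range. Rps27l, Rpl35a and Rplp0 were at 203 RPM in replicate 5 and at 0 in the others, and Rpl34 was at 253 RPM in replicate 1 and at 0 in the others, each of which is a single read. The counts of replicates 1, 2 and 3 agree within sampling noise, so that the comparisons in which replicate 5 stands apart set it against what was counted as 1 library.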

How the results depend on the processing

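No ribosomal protein gene was called between genotypes under any of the 15 alternatives, in which 0 to 1101 genes were called over all. Their median log2 fold change of 0.17 lay between 0.0379 and 0.234 when each library was left out in turn, lowest without Mov10-/- replicate 3, and was 0.0408 with libraries of similar depth (without replicate 3 of both genotypes), an alternative chosen after seeing the data. It was 0.14 to 0.17 under the other tests, scalings and filters. Replicate numbers 2 and 3 occur in both genotypes, and libraries of the same number deviated in opposite directions from their group means (correlations -0.463 and -0.344). Deviations from a mean of 3 libraries depend on one another, so these correlations cannot show whether same-numbered libraries share an origin. With a block on the replicate number the median was 0.24, and 0 ribosomal protein genes and 184 genes in all were called. The log2 ratio of Rpl10l to Rpl10 then differed by -0.09 between genotypes, against 0.00 without the block. The ratio of Mov10-/- to wild type read shares was 1.05 to 1.17 over the alternatives. The log2 fold change changed sign under at least 1 alternative in 11 of the 38 named genes, Rpl10l among them, which was above 0 with all libraries and below 0 without Mov10-/- replicate 3.

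Against wild type RNA-seq, CLIP-seq called 1 ribosomal protein gene with all 4 CLIP-seq libraries as labelled, 2 by DESeq2 and 0 with TMM across both assays. Among genes with at least 1 read in each assay it called 2. That filter admits only genes that have CLIP-seq reads, 3552 in all and 6 ribosomal protein genes. Of the 3552 genes, 407 were called higher, so the 2 calls under this filter are no separate support. When each wild type library was left out, 0 to 2 ribosomal protein genes were called, 1 without replicate 1 and 2 without replicate 3. Over all 18784 genes, 52, 1 and 251 were called higher without wild type replicates 1, 2 and 3. Over all genes these settings called 1 to 407 higher, and DESeq2 alone called any lower, 57. The ratio of read shares was 0.734, and 0.165 as shares of uniquely aligned reads. The CLIP-seq depth limits every statement on single genes. The part of reads per base in the RNA-seq fold changes of dense genes was not tested.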
